A study of Rattus norvegicus with 23 samples.

Results

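Rat brain endothelial cells in primary culture, exposed to oxygen-glucose deprivation and reoxygenation (OGD/R) together with N,N-dimethyltryptamine (DMT) and BD1063, were compared with the same kind of cells exposed to OGD/R alone. The comparison rests on 12 of the 23 RNA-seq libraries of the study, 6 in each group, chosen by the group and number in the sample titles and not by any measured value. The cells had been kept in co-culture with pericytes and astrocytes, and each library was made from the endothelial lysate of 1 culture insert. The other groups were OGD/R with DMT but without BD1063 (n = 5) and normoxia (n = 6). Below, the groups are called the BD1063 group (OGD/R, DMT and BD1063), the OGD/R group, the DMT group (OGD/R and DMT) and normoxia, and OGD/R 3 stands for the library with that number in its group. All groups except normoxia share the deprivation and reoxygenation. Cells given BD1063 without DMT were not analysed here, so an action of BD1063 itself and an action on the DMT response cannot be told apart. Doses, times and the culture isolations behind the inserts are not given in the sources used here, and p-values therefore measure only the spread between these inserts.

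OGD/R is a culture model of ischemic stroke and reperfusion. DMT is a tryptamine that binds serotonin receptors and sigma receptors, and BD1063 is an antagonist of sigma receptors. The sigma-2 receptor is encoded by Tmem97. Cells control their own cholesterol supply through the factor SREBP2 (gene Srebf2), which INSIG proteins hold in the endoplasmic reticulum when sterols are plentiful and which otherwise moves to the nucleus and raises the genes of the synthesis pathway and of LDL uptake. The related factors TFEB and TFE3 raise genes of lysosomes and autophagy and are kept out of the nucleus by the nutrient-sensing kinase complex mTORC1 through folliculin (gene Flcn).

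Sterol synthesis genes, several lysosomal and autophagy genes and the vessel growth factor gene Angpt2 were higher in the BD1063 group than in OGD/R, while some genes of cell division, RNA processing, the proteasome, the respiratory chain and the contractile cytoskeleton were lower. Of 27 proteasome genes and 41 of the respiratory chain 5 each fell. The counts were 0 and 1 without OGD/R 5, a library with a high share of ribosomal protein genes. They were also 0 and 1 without OGD/R 2, BD1063 4 or BD1063 5, and both were 0 without BD1063 3. Genes were tested with edgeR's quasi-likelihood test, and a gene is called when its Benjamini-Hochberg adjusted p over all 13834 genes tested is under 0.05. In all, 735 genes were called (5.31%), 257 of them higher (1.86%) and 478 lower (3.46%). Counts of list members below are to be read beside these shares, and several lists with few calls lie near them. Most of these differences were small. The median absolute log2 fold change of the called genes was 0.34, and 23 genes rose and 86 fell by at least 1.5-fold. The median log2 fold change of all genes tested was -0.01. Against the DMT group the BD1063 group had 0 called genes in either direction, that is 0% of those tested.

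**Figure D1:**
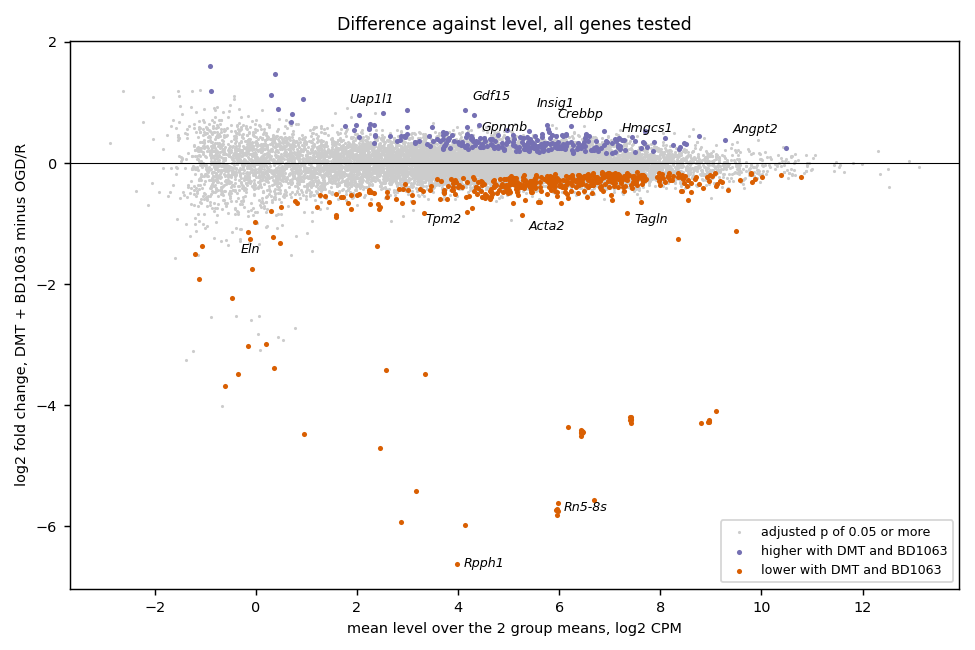
Log2 fold change of the BD1063 group against OGD/R (vertical axis) by mean level in log2 CPM (counts scaled to a common library size, horizontal axis) for each gene tested, with called genes coloured. Most called genes lie within 1 log2 unit of 0, and the points below -4 are structural RNA genes such as Rpph1 and Rn5-8s and genes known only by clone names.

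Gene counts summed to between 13367918 (OGD/R 3) and 17119247 (OGD/R 2) per library in the groups compared. OGD/R 3 and OGD/R 5 stood apart from the rest. Genes of nuclear noncoding RNA classes took 2.54% of the counts of OGD/R 3 and 0.0817% to 0.235% of those of the other 11 libraries. Genes of cytosolic ribosomal proteins took 3.45% of the counts of OGD/R 5 and 2.04% to 2.57% of those of the others. The ribosomal protein share was 2.21% ± 0.159 (SD, n = 6) in the BD1063 group and 2.55% ± 0.475 (n = 6) in OGD/R (two-sided exact permutation p = 0.0909, 0.136 adjusted over 3 shares). Endothelial markers summed to 11732 to 12464 CPM in the BD1063 group and 10945 to 12382 CPM in OGD/R, with none of the 13 found under 1 CPM. Of the astrocyte markers 8 of 10 lay under 1 CPM, Gfap and Aqp4 among them. All 10 summed to 153 to 225 CPM in OGD/R and 160 to 190 CPM in the BD1063 group. Fibroblast and meningeal markers, 5 of 9 under 1 CPM, summed to 137 to 420 CPM in OGD/R and 104 to 396 CPM in the BD1063 group. Without OGD/R 3 and OGD/R 5 together, 54 genes were called higher and 62 lower. Counts of list members without both are given below for the main groups.

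Cholesterol synthesis was the list with the largest share of called members (8 of 21 tested higher, 0 lower), and 20 of the 21 members had a log2 fold change above 0. The median over the list was 0.21, beside -0.01 over all genes. Hmgcs1, which makes HMG-CoA at the start of the pathway, lay at 109 to 130 CPM in the 6 OGD/R libraries (median 117) and at 149 to 169 CPM in the 6 BD1063 libraries (median 154). The groups did not overlap, and Hmgcs1 rose by 0.40 ± 0.05 on the log2 scale (SE; edgeR adjusted p = 0.00041). Msmo1, a sterol methyl oxidase, lay at 82.1 to 108 CPM in OGD/R (median 90.0) and in a narrow range of 116 to 122 CPM in the BD1063 group (median 120), a rise of 0.37 ± 0.07 (adjusted p = 0.00863). Among the other members called, named because they belong to the count, were Fdft1 and Sqle, which lead into the sterol branch (0.28 ± 0.06 and 0.31 ± 0.07), Hsd17b7 (0.39 ± 0.10), Sc5d (0.32 ± 0.07) and Dhcr7, of the last steps (0.36 ± 0.08). Groups that did not overlap were seen in 6 members, all higher, against 2.1% of all genes higher and 2.67% lower. In Fdft1 and Dhcr7 every BD1063 library lay above every OGD/R library, and in Sqle, Sc5d and Hsd17b7 this held for 5 of 6 BD1063 libraries. Pmvk, phosphomevalonate kinase, was the only member below 0 (-0.26 ± 0.13, adjusted p = 0.205; named after its value was seen). Hmgcs1, Msmo1 and Fdft1 stayed called when each of the 12 libraries was left out in turn. The calls of Sqle ended without OGD/R 2 or BD1063 5 (adjusted p up to 0.0661), of Sc5d without BD1063 3 or 5 (up to 0.0687), of Dhcr7 without OGD/R 2 or BD1063 3 or 5 (up to 0.068) and of Hsd17b7 without OGD/R 1, 2 or 5 or BD1063 3, 4 or 5 (up to 0.0845). Between 3 and 10 members were called then, with 5 without OGD/R 2, 5 without BD1063 3 and 3 without BD1063 5, and 4 without OGD/R 3 and OGD/R 5. The list median stayed between 0.20 and 0.25.

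Of the regulators of this pathway and of LDL uptake 3 of 14 tested rose and 0 fell. Insig1, the SREBP-induced protein that holds the SREBP complex back, lay at 35.6 to 48.8 CPM in OGD/R (median 42.8) and at 60.5 to 69.1 CPM in the BD1063 group (median 67.3). Its groups did not overlap, and its rise of 0.63 ± 0.06 had the smallest adjusted p of all genes (9.52e-06, and at most 7.93e-05 with single libraries left out). Srebf2 rose by 0.36 ± 0.06 (adjusted p = 0.00654), from 143 to 168 CPM in OGD/R (median 163) to 187 to 224 CPM (median 201). There were 2 members called without OGD/R 3 and OGD/R 5 together. Scd2, a fatty acid desaturase under SREBP control, chosen after its value was seen, was the only member called of 15 genes of fatty acid synthesis and desaturation (0.41 ± 0.09, adjusted p = 0.021, lost without BD1063 4 or 5, up to 0.0587). Among 11 genes of the liver X receptor and cholesterol export 1 rose and 0 fell. That was Nceh1, a cholesteryl ester hydrolase (0.20 ± 0.06, adjusted p = 0.0475), which kept its call without OGD/R 1 and OGD/R 3 and lost it without each of the other 10 libraries (up to 0.126).

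Promoter sequences of the called members of these groups and of the lysosome and autophagy lists were read from RefSeq (build GRCr8), as the window from 250 bases before to 50 bases after the annotated start. An entry was found for 16 of 21 genes. A gene was counted when any of its entries held a match, while the share over all is per window, so these are unlike measures. On both strands, CCAAT, the box bound by NF-Y, stood in a window of 8 of the 16 genes and in 37.5% of all 33469 windows of the same length. CACGTG, the E-box that TFEB and related factors can bind and which reads the same on both strands, stood in 3 of 16 genes (Insig1, Sc5d and Gaa) and in 6.42% of all windows. TCACNCCAC, a form of the sterol regulatory element, stood in 0 of 16 genes and in 1.12% of all windows. The windows of Insig1, of the 2 synthesis genes with the smallest adjusted p and of Gaa, a lysosomal gene described below, are shown 5′ to 3′ in the direction of transcription, with CCAAT (or ATTGG, its reverse complement) and CACGTG in capitals.
Insig1, chr4:8057720-8058019, minus strand: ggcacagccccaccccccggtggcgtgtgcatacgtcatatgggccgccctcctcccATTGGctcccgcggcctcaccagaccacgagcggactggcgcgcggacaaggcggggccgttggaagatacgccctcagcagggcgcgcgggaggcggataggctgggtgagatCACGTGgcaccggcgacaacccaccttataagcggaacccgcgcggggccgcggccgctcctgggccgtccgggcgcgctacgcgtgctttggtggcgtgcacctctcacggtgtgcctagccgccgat
Hmgcs1, chr2:53382054-53382353, plus strand: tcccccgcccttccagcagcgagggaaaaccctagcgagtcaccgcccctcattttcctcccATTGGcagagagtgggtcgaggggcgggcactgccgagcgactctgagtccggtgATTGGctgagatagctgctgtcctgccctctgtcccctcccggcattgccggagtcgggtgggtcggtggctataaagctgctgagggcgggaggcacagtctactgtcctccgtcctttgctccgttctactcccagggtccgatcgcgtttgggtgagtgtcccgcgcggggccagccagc
Msmo1, chr16:29746863-29747162, plus strand: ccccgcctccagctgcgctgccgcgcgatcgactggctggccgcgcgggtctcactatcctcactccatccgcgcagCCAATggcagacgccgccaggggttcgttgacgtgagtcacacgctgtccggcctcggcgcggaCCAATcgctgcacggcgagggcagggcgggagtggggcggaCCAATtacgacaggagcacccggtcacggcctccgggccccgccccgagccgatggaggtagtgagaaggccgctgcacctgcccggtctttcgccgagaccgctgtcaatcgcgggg
Gaa, chr10:105028105-105028404, plus strand: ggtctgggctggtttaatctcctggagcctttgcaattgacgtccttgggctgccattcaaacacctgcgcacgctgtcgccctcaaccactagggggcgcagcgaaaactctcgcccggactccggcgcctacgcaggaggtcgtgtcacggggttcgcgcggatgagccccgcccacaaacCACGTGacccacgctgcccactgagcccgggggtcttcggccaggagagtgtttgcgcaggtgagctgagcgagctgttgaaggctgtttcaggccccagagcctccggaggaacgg
A match is a run of letters in the reference and says nothing of binding in these cells.

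**Figure D2:**
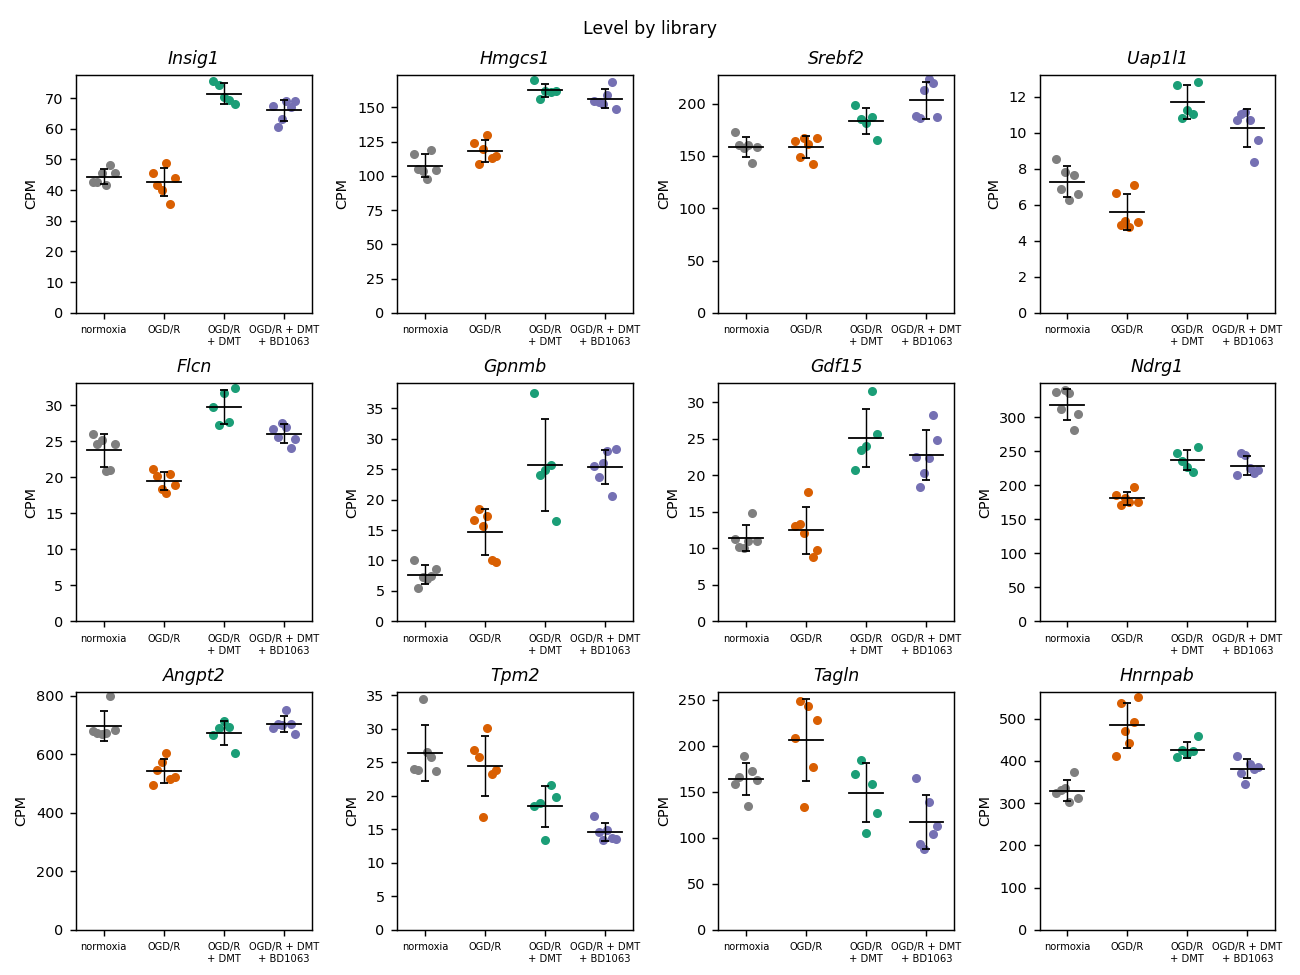
Level in CPM of 12 genes in each library of the 4 groups, with the group mean as a line and the SD as an error bar. In Insig1, Hmgcs1, Srebf2, Uap1l1, Flcn, Gpnmb, Gdf15, Ndrg1 and Angpt2 every BD1063 library lies above every OGD/R library, and in Hnrnpab every BD1063 library lies below.

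Lysosome and autophagy genes moved up in smaller number. Of 30 genes of autophagy and the TFEB or TFE3 response 5 rose and 0 fell (median 0.09), and of 41 lysosomal genes 4 rose and 1 fell (median 0.07). Flcn, the folliculin gene and itself a TFE3 target, lay at 17.8 to 21.1 CPM in OGD/R (median 19.6) and at 24.1 to 27.6 CPM in the BD1063 group (median 26.2). It rose by 0.42 ± 0.07 (adjusted p = 0.00441), with no overlap between the groups, and kept its call without each single library. Gpnmb, a lysosomal membrane glycoprotein, lay at 9.75 to 18.4 CPM (median 16.1) in OGD/R and at 20.7 to 28.2 CPM (median 25.8) in the BD1063 group, a rise of 0.79 ± 0.17 (adjusted p = 0.0206, and 0.0513 at most, without BD1063 3). The other members called were Ulk1, the kinase that starts autophagy (0.35 ± 0.08), Wipi1, which binds the growing autophagosome (0.23 ± 0.06), and Atg2a, a lipid transfer protein at that membrane (0.35 ± 0.09), each chosen after its value was seen. Their calls ended without 4, 5 and 7 of the 12 single libraries. The count of autophagy members called fell to 1 without BD1063 3, to 2 without OGD/R 2 or BD1063 5 and to 3 without OGD/R 6, BD1063 4 or BD1063 6, and it was 1 without OGD/R 3 and OGD/R 5 together. The list median was 0.06 without OGD/R 6.

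Among lysosomal enzymes, all chosen after their values were seen, Tpp1, a tripeptidyl peptidase, lay at 69.4 to 92.8 CPM in OGD/R (median 76.6) and at 96.1 to 104 CPM in the BD1063 group (median 100). It rose by 0.34 ± 0.06 (adjusted p = 0.00724). Gaa, acid alpha-glucosidase, whose promoter is shown above, rose by 0.27 ± 0.05 (adjusted p = 0.0136), from 37.5 to 45.8 CPM to 48.3 to 54.5 CPM. Both genes had groups that did not overlap and kept their calls without each single library. Atp6v0a1, a proton pump subunit, rose by 0.25 ± 0.07 (adjusted p = 0.0482) and kept its call without OGD/R 3 or OGD/R 4 alone (up to 0.118 over single omissions). Only 2 lysosomal members were called as higher without OGD/R 2, 5 or 6 or any single BD1063 library, as also without OGD/R 3 and OGD/R 5 together. Ctsz, a cathepsin, fell by 0.40 ± 0.09 (adjusted p = 0.0206, lost without OGD/R 2 or BD1063 3 or 5, up to 0.0595). Of 22 genes of the lysosomal nutrient-sensing complexes, a family put together after values were seen, 5 rose and 0 fell. Among them, beside Flcn, were Nprl2 and Nprl3 of the GATOR1 complex (0.38 ± 0.08 and 0.28 ± 0.08) and Castor2 (1.07 ± 0.27, at 0.729 to 1.57 CPM in OGD/R and 1.85 to 3.19 CPM in the BD1063 group). The count was 1 without OGD/R 2 or BD1063 5, 2 without OGD/R 6, BD1063 3 or BD1063 4, 3 without OGD/R 5 and 1 without OGD/R 3 and OGD/R 5 together.

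Uap1l1, which resembles the enzyme that makes UDP-N-acetylglucosamine, had the largest rise among called genes with a symbol that is not provisional and a mean of at least 4 CPM. It lay at 4.79 to 7.09 CPM in OGD/R (median 5.08) and at 8.38 to 11.2 CPM in the BD1063 group (median 10.7), a rise of 0.87 ± 0.11 (adjusted p = 0.000218). Xylb, xylulokinase, rose by 0.62 ± 0.09 (adjusted p = 0.00125), from 14.5 to 19.4 CPM (median 17.4) to 23.2 to 28.4 CPM (median 26.1). In both genes the groups did not overlap and the call held without each single library. Others of that ranking were Unc13a, a vesicle priming protein (0.65 ± 0.18), Zswim5 (0.64 ± 0.14), Nav2, a cytoskeletal navigator protein (0.62 ± 0.18), and Dmxl2, a regulator of the proton pump (0.60 ± 0.14). Their adjusted p ran from 0.0212 to 0.0445, and each lost its call without OGD/R 2 and without BD1063 3, and Unc13a, Nav2 and Dmxl2 also without other single libraries (adjusted p up to 0.106).

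Tmem97 lay at 66.4 to 82.9 CPM in OGD/R (median 70.5) and at 59.7 to 75.0 CPM in the BD1063 group (median 64.0), with overlap, and was not called (log2 fold change -0.14 ± 0.08, 95% interval -0.29 to 0.02, adjusted p = 0.268). Of 12 tested genes of sigma and serotonin receptors and amine metabolism 2 rose and 1 fell. Maoa, the monoamine oxidase that breaks down tryptamines, fell by 0.23 ± 0.05 (adjusted p = 0.0224), from 141 to 179 CPM (median 161) to 133 to 140 CPM (median 136), with no overlap. Ahr, a receptor for indoles and other ligands, rose by 0.35 ± 0.08 (adjusted p = 0.0283), from 55.1 to 85.1 CPM (median 63.6) to 76.7 to 89.5 CPM (median 85.9), and 3 of 6 BD1063 libraries lay above the highest OGD/R library. Itpr3 (0.34 ± 0.09, adjusted p = 0.0418), an inositol trisphosphate receptor of the endoplasmic reticulum picked with its value known, rose too. The call of Maoa ended without BD1063 3, 4 or 5 (up to 0.0603), that of Ahr without OGD/R 2 or BD1063 3, 5 or 6 (up to 0.0721) and that of Itpr3 without OGD/R 1, 2 or 5 or BD1063 3, 4, 5 or 6 (up to 0.102). Without OGD/R 2, BD1063 3, BD1063 5 or BD1063 6, and without OGD/R 3 and OGD/R 5 together, 0 of the list's members were called higher. Nqo1, a quinone reductase under the control of NRF2 and Ahr, fell by 0.27 ± 0.07 (adjusted p = 0.0382, lost without 9 of 12 single libraries, up to 0.0909). It was the only 1 called lower of 9 tested genes of the Ahr target list, which counts Ahr itself as the only 1 called higher. In that list 5 log2 fold changes lay above 0 and 4 below (median 0.15).

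Stress programs split. Gdf15, a secreted stress cytokine and ATF4 target, lay at 8.81 to 17.8 CPM in OGD/R (median 12.6) and at 18.4 to 28.3 CPM in the BD1063 group (median 22.5), and it rose by 0.87 ± 0.14 (adjusted p = 0.00441, at most 0.016 over single omissions). Of 31 ATF4 targets 3 rose and 0 fell, the others being Ppp1r15a, a phosphatase subunit that ends the stress response (0.21 ± 0.06), and Slc38a2, an amino acid carrier (0.31 ± 0.09), both chosen after their values were seen. Only 1 of the 31 was called without OGD/R 1, OGD/R 2 or BD1063 2, 3, 4, 5 or 6, or without OGD/R 3 and OGD/R 5 together, and 5 without OGD/R 4. Of 8 aminoacyl-tRNA synthetases tested 0 rose and 2 fell. These were Dars (-0.26 ± 0.07, adjusted p = 0.0316) and Kars (-0.20 ± 0.05, adjusted p = 0.034), and the count was 0 without OGD/R 2 or 5 or BD1063 3, 4 or 5 and 1 without OGD/R 6 or BD1063 2 or 6. Heat shock proteins and chaperones had 0 of 21 higher and 4 lower (median -0.15). Hspd1, the mitochondrial chaperonin, lay at 208 to 251 CPM in OGD/R (median 228) and at 178 to 208 CPM in the BD1063 group (median 196), and fell by 0.26 ± 0.07 (adjusted p = 0.0316). Dnaja1, an HSP70 partner, fell by 0.32 ± 0.09 (adjusted p = 0.0429), and Fkbp4 and Stip1, HSP90 partners chosen after their values were seen, by 0.26 ± 0.07 and 0.15 ± 0.05. None of the 4 was called without OGD/R 2, 5 or 6 or BD1063 3, 4, 5 or 6, and 2 were without OGD/R 3 or BD1063 1 or 2. In the fit without OGD/R 3 and OGD/R 5 together 0 synthetases and 0 chaperones were called. Among 23 genes of the unfolded protein response 1 rose, Herpud1 of the degradation pathway of the endoplasmic reticulum, and 1 fell, the chaperone gene Dnajb11, both named after their values were seen.

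Of 34 targets of the hypoxia-inducible factor 2 rose and 0 fell (median 0.09), a called share of 5.88% that lies near the 5.31% of all genes. Ndrg1, a hypoxia-induced gene chosen after its value was seen, lay at 171 to 198 CPM in OGD/R (median 178) and at 214 to 248 CPM in the BD1063 group (median 224), a rise of 0.34 ± 0.06 (adjusted p = 0.00518) that held without each single library. Bhlhe40, a repressor shared with the circadian clock, lay at 45.1 to 76.4 CPM (median 53.4) and at 61.7 to 95.6 CPM (median 74.5), and the groups overlapped. It rose by 0.46 ± 0.11 (adjusted p = 0.0283, up to 0.0778 over single omissions). With Cry2 (0.29 ± 0.07, adjusted p = 0.0306) and Per1 (0.41 ± 0.10, adjusted p = 0.0316; chosen after its value was seen), both repressors of the clock, it made up the 3 of 19 clock genes that rose, while 0 fell (median 0.13). None of the clock genes was called without OGD/R 2, BD1063 3, 5 or 6, or OGD/R 3 and OGD/R 5 together, and 1 was without BD1063 4. The hypoxia count was 1 without OGD/R 2 or BD1063 3, 4, 5 or 6 or without OGD/R 3 and OGD/R 5 together, and 4 without OGD/R 4.

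Angpt2, angiopoietin 2, which loosens vessel walls by competing at the Tie2 receptor, lay at 495 to 604 CPM in OGD/R (median 536) and at 669 to 752 CPM in the BD1063 group (median 703). It rose by 0.37 ± 0.06 (adjusted p = 0.00243) with no overlap between the groups, and the call held without each single library. Of 30 genes of angiogenesis, VEGF and angiopoietin signaling 2 rose and 0 fell (median 0.09), a called share of 6.67% beside 5.31% of all genes. The other was Vegfb (0.44 ± 0.13, adjusted p = 0.0457), a VEGF family ligand, which kept its call without OGD/R 3 and lost it without each of the other 11 libraries (up to 0.112). Angpt2 and Vegfb, and in the next sentences Erg, Ppard and Slc1a1, were chosen after their values were seen. Of 36 endothelial transcription factors and identity genes 2 rose and 0 fell, a called share of 5.56% that is near that of all genes. Erg, a master regulator of endothelial identity, lay at 252 to 293 CPM in OGD/R (median 272) and at 322 to 345 CPM in the BD1063 group (median 333), without overlap, and rose by 0.29 ± 0.07 (adjusted p = 0.0316). Ppard, a nuclear receptor for fatty acids, rose by 0.27 ± 0.07 (adjusted p = 0.0354). Neither was called without OGD/R 2, 5 or 6 or BD1063 3, 4 or 5, or without OGD/R 3 and OGD/R 5 together, and 1 was without OGD/R 1 or BD1063 6.

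Barrier genes were largely not called. With edgeR's quasi-likelihood test 0 of 22 tight junction genes were called (2 at an unadjusted p under 0.05, 2 by DESeq2 and 1 by limma voom) and 0 of 15 adherens junction genes (3, 0 and 2). Of 18 cytokines and chemokines 0 were called (2, 0 and 0), of 15 leukocyte adhesion genes 0 (1, 0 and 1) and of 17 NF-kB genes 0 (2, 1 and 0), with the same 3 counts in parentheses. Cldn5, the main claudin of brain endothelium, ranged from 1205 to 2455 CPM over the OGD/R libraries (median 1643) and from 1373 to 1679 CPM over the BD1063 libraries (median 1484), with a log2 fold change of -0.20 ± 0.14 (95% interval -0.49 to 0.09). Ocln, occludin, had medians of 108 CPM in both groups and a log2 fold change of -0.01 ± 0.10 (interval -0.21 to 0.19). Tjp1, the scaffold protein ZO-1, lay at 336 to 466 CPM in OGD/R (median 409) and at 434 to 535 CPM in the BD1063 group (median 491), and 4 of 6 BD1063 libraries lay above the highest OGD/R library. Its log2 fold change of 0.26 ± 0.13 was not called (adjusted p = 0.207), and it was called in 2 of 22 alternative settings (adjusted p up to 0.371 over single omissions). Cdh5, VE-cadherin, had a log2 fold change of 0.14 ± 0.07 (interval -0.02 to 0.29, adjusted p = 0.247), and Slc2a1, the glucose transporter of the barrier, one of 0.03 ± 0.05 (interval -0.08 to 0.13). The intervals of Cldn5 and Tjp1 (-0.003 to 0.52 for Tjp1) leave room for a change of 0.34, the median absolute value of the called genes. Those of Ocln and Cdh5 leave room only for smaller ones, and that of Slc2a1 was the narrowest of the 5. Of 27 barrier transporters 1 rose and 0 fell, namely Slc1a1, a glutamate carrier (0.40 ± 0.11, adjusted p = 0.04, up to 0.0964 over single omissions).

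Other signaling and stress lists held few calls, and the genes named here make up those counts and were chosen after their values were seen. With edgeR 0 of 21 Wnt genes were called (5 at an unadjusted p under 0.05, 0 by DESeq2 and 0 by limma voom), 0 of 17 Notch genes (5, 2 and 3), 0 of 31 TGF-beta and BMP genes (4, 0 and 0) and 0 of 15 integrins (3, 0 and 1). Of 29 interferon response genes only Gbp2, a guanylate-binding protein, fell (-0.31 ± 0.07, adjusted p = 0.0247), and of 22 p53 targets Gadd45a, a growth arrest gene (-0.38 ± 0.08, adjusted p = 0.0206), and Fdxr (-0.47 ± 0.13, adjusted p = 0.0418). Of 27 NRF2 genes Nqo1 and Gclm, of glutathione synthesis, fell and 0 rose, and of 20 coagulation and vasomotor genes Procr, the protein C receptor, fell (-0.34 ± 0.09, adjusted p = 0.0355). Trpv4, a calcium channel of endothelium, lay at 8.96 to 14.2 CPM in OGD/R (median 10.3) and at 14.3 to 17.3 CPM in the BD1063 group (median 14.8), and it was the only one of 20 channel genes called (0.46 ± 0.13, adjusted p = 0.0424, up to 0.106 over single omissions). Bcl2l11, the death-promoting protein BIM, was the only one of 14 BCL2 family genes called (0.35 ± 0.08, adjusted p = 0.0206, up to 0.059). Its groups did not overlap, at 95.3 to 114 CPM and 119 to 150 CPM.

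**Figure D3:**
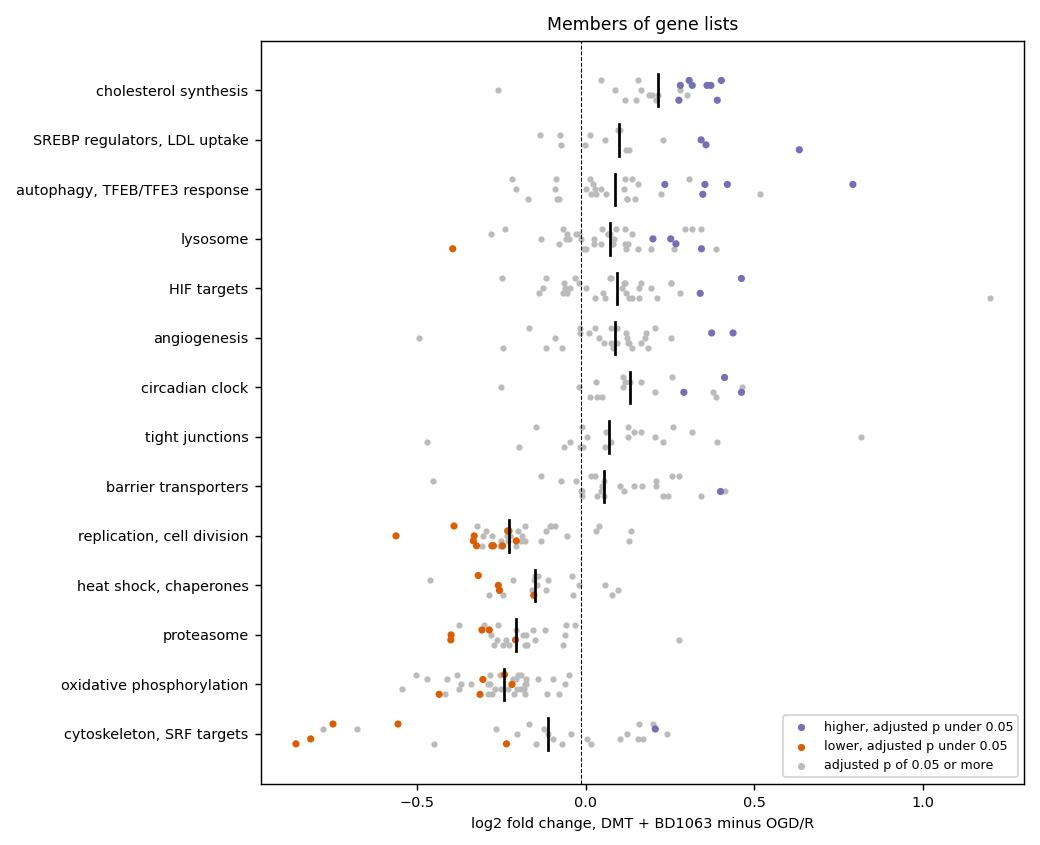
Log2 fold change of the BD1063 group against OGD/R for the tested members of 14 gene lists, 1 point a gene, with the list median as a bar and the median of all genes as a dashed line. Cholesterol synthesis members lie to the right of 0 except 1, and all 41 oxidative phosphorylation members lie to the left.

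Genes of DNA replication and cell division made up the list with the largest number of calls. Of 38 tested 0 rose and 11 fell, and 34 had a log2 fold change below 0 (median -0.23). Mcm7, a subunit of the replicative helicase, lay at 142 to 175 CPM in OGD/R (median 152) and at 108 to 137 CPM in the BD1063 group (median 122), and fell by 0.33 ± 0.08 (adjusted p = 0.0224). Aurka, a mitotic kinase, lay at 36.2 to 40.7 CPM (median 38.4) and at 26.7 to 33.5 CPM (median 30.6), and fell by 0.32 ± 0.07 (adjusted p = 0.0224). The groups overlapped in neither. Both lost their calls without OGD/R 2 or BD1063 3 or 5 (adjusted p up to 0.067). The other 9 that fell were Bub1b, Ccna2, Ccnb1, Gins1, Mcm3, Mcm5, Plk1, Rrm1 and Tk1, by 0.21 for Rrm1 to 0.56 for Gins1, a partner of that helicase. None of the 38 was called without OGD/R 2, BD1063 3 or BD1063 5, 2 were without BD1063 4 or 6, 3 without OGD/R 6 or BD1063 2, 4 without OGD/R 3, 6 without OGD/R 5 and 1 without OGD/R 3 and OGD/R 5 together. The median stayed between -0.25 and -0.20 over single omissions and was -0.21 without both. Of 27 kinetochore and centromere genes, a family put together after values were seen, 8 fell and 0 rose (median -0.19). Among them Spc24, a kinetochore protein, lay at 43.7 to 82.8 CPM in OGD/R (median 56.9) and at 31.9 to 43.1 CPM in the BD1063 group (median 38.8), and fell by 0.64 ± 0.14 (adjusted p = 0.0212). Without OGD/R 3 and OGD/R 5 together 0 of these 27 were called, and the median was -0.22. The count was 1 without OGD/R 2, BD1063 3 or BD1063 5, 2 without BD1063 4, 3 without BD1063 6 and 5 without OGD/R 1 or OGD/R 5. Gadd45g, a growth arrest gene, fell by 0.60 ± 0.10 (adjusted p = 0.00552), from 23.9 to 32.1 CPM (median 30.9) to 17.4 to 23.8 CPM (median 19.4), and Cdca7, a cell division gene, by 0.40 ± 0.07 (adjusted p = 0.00848). Both genes, picked with their values known, kept their calls without each single library.

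Genes of RNA processing and translation fell in families that were put together after values were seen. Of 19 heterogeneous nuclear ribonucleoproteins 5 fell and 0 rose (median -0.21), and Hnrnpab lay at 413 to 552 CPM in OGD/R (median 481) and at 345 to 411 CPM in the BD1063 group (median 383), a fall of 0.34 ± 0.07 (adjusted p = 0.009). Of 11 SR splicing factors 2 fell and 0 rose, Srsf7 by 0.36 ± 0.07 and Srsf9 by 0.40 ± 0.08 (adjusted p = 0.00813 and 0.0114). Of 52 translation initiation factors 7 fell and 0 rose (median -0.11). Eif4e, which binds the mRNA cap, lay at 118 to 133 CPM (median 121) and at 94.2 to 106 CPM (median 102), and fell by 0.30 ± 0.06 (adjusted p = 0.00863), and Eif4a2, a helicase of the same complex, fell by 0.28 ± 0.05 (adjusted p = 0.0114). Exosc2, a subunit of the RNA exosome, fell by 0.35 ± 0.06 (adjusted p = 0.00724), from 46.9 to 59.0 CPM to 36.8 to 42.6 CPM. In each of these 6 genes the groups did not overlap and the call held without each single library and without OGD/R 3 and OGD/R 5 together. The counts of the families moved more: 1 ribonucleoprotein was called without OGD/R 2 or 6 or BD1063 3, 4, 5 or 6, 3 without OGD/R 5 and 8 without OGD/R 4, and 2 initiation factors were called without OGD/R 2 or 5 or BD1063 3, 4 or 5 and 4 without OGD/R 6. Without OGD/R 3 and OGD/R 5 together 2 of each family were called. The other ribonucleoprotein genes that fell were Hnrnpa2b1, Hnrnpd, Hnrnpf and Hnrnpll.

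Of 27 proteasome genes 5 fell and 0 rose (Psma2, Psma5, Psmb7, Psmc1 and Psmd12; median -0.21), and of 41 nuclear genes of oxidative phosphorylation 5 fell and 0 rose (median -0.24), with all 41 log2 fold changes below 0. Psma2, of the proteasome core, lay at 146 to 217 CPM in OGD/R (median 175) and at 121 to 147 CPM in the BD1063 group (median 133), and fell by 0.40 ± 0.09 (adjusted p = 0.0264). Psmb7, a catalytic subunit, lay at 139 to 197 CPM (median 161) and at 106 to 136 CPM (median 124), and fell by 0.40 ± 0.10 (adjusted p = 0.0316). Ndufs1, a subunit of complex I chosen after its value was seen, fell by 0.24 ± 0.05 (adjusted p = 0.0158, at most 0.0533, without BD1063 3), from 144 to 164 CPM to 120 to 134 CPM with no overlap. Ndufa4, Ndufa9 and Sdha of the respiratory chain fell too. All 85 tested genes of cytosolic ribosomal proteins, a family put together after values were seen, also had log2 fold changes below 0 (median -0.27), and 1 of them was called. The sources used here do not give how reads were divided between ribosomal protein genes and their near-identical copies. OGD/R 5 had the highest share of ribosomal protein genes in the groups compared, at 3.45%. The cytosolic ribosomal protein genes themselves make up that share. Without OGD/R 5 the medians were -0.12 for the proteasome, -0.16 for oxidative phosphorylation and -0.14 for cytosolic ribosomal proteins, and 0, 1 and 0 members were called as lower. Of the cytosolic ribosomal protein genes 0 were called without OGD/R 2 or 6 or any single BD1063 library either, and 4 without OGD/R 4. Without OGD/R 3 and OGD/R 5 together 0 members of each of the 3 groups were called, with medians of -0.14, -0.17 and -0.16. The part of OGD/R 5 in the differences beyond these values was not tested. None of the proteasome genes was called without OGD/R 2 or BD1063 3, 4 or 5, 1 was without OGD/R 6 and 2 were without BD1063 1, 2 or 6. For oxidative phosphorylation the count was 0 without BD1063 3, 1 without OGD/R 2 or BD1063 4 or 5, 2 without OGD/R 6, 3 without BD1063 6 and 9 without OGD/R 4.

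Of 27 genes of the cytoskeleton, its signaling and serum response factor targets 5 fell and 1 rose (median -0.11, 17 below 0). Tpm2, a tropomyosin, lay at 16.9 to 30.1 CPM in OGD/R (median 24.8) and at 13.4 to 17.0 CPM in the BD1063 group (median 14.1), and fell by 0.75 ± 0.12 (adjusted p = 0.00441). Tagln, an actin-binding protein of smooth muscle, lay at 133 to 248 CPM (median 218) and at 88.2 to 165 CPM (median 109), and fell by 0.82 ± 0.16 (adjusted p = 0.0105). In Tpm2 the lowest OGD/R library lay below 1 of the 6 BD1063 libraries, and in Tagln below 2 of the 6. Acta2, smooth muscle actin, lay at 28.4 to 67.5 CPM (median 50.9) and at 17.1 to 39.8 CPM (median 25.2), with overlap, and fell by 0.86 ± 0.25 (adjusted p = 0.0462). In all 3 genes the lowest OGD/R library was OGD/R 3. Tpm2 and Tagln kept their calls without each single library, and Acta2 kept its call without OGD/R 3 or BD1063 1 and lost it without each of the other 10 (up to 0.115). Myl9, a myosin light chain, and Tpm4, another tropomyosin, fell by 0.56 ± 0.16 and 0.24 ± 0.06 (adjusted p = 0.0475 and 0.0335), and Rock1, a kinase that drives contraction, rose by 0.21 ± 0.06 (adjusted p = 0.0382), all chosen after their values were seen. The number of members that fell was 4 without OGD/R 3 and OGD/R 5 together, 3 without OGD/R 1, 4 or 5 and 2 without OGD/R 2 or 6 or BD1063 2, 3, 4, 5 or 6. Acta2 and Tagln are also markers of pericytes and smooth muscle. The 14 markers of that list summed to 1515 to 1649 CPM in OGD/R and to 1465 to 1606 CPM in the BD1063 group. Of the 10 tested, 2 fell and 0 rose, while 5 had log2 fold changes above 0 and 5 below (median -0.002). Most of the sum in the BD1063 group was Mcam, an adhesion molecule that is also endothelial, so the sums say little of pericytes. Mean levels of Rgs5, Abcc9, Des, Anpep and Vtn lay under 1 CPM, and those of the other markers of the list did not. In these lysates fewer cells of a type and less RNA per cell cannot be told apart, and the part of other cells in the fall was not tested. Eln, elastin, chosen after its value was seen, fell by 1.22 ± 0.30 (adjusted p = 0.03), from a median of 1.81 CPM to one of 0.629 CPM with overlap, and it was the only one of 31 collagen, laminin and basement membrane genes called (adjusted p up to 0.0734 over single omissions).

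Some genes of large regulatory proteins rose, in families put together after values were seen. Of 27 coactivator genes of the KMT2, NCOA, CREBBP and EP300 group 4 rose and 0 fell, and 24 had a log2 fold change above 0 (median 0.31). Crebbp, a histone acetyltransferase, lay at 36.0 to 48.3 CPM in OGD/R (median 46.9) and at 55.1 to 80.4 CPM in the BD1063 group (median 65.0), without overlap, and rose by 0.56 ± 0.11 (adjusted p = 0.0136, at most 0.0408 over single omissions). Ncoa1, Ncoa6 and Trrap rose by 0.41 ± 0.10, 0.48 ± 0.14 and 0.47 ± 0.13. Of 19 large ubiquitin ligases 2 rose and 0 fell (median 0.29), namely Ubr4 (0.52 ± 0.14, adjusted p = 0.0371) and Mycbp2 (0.47 ± 0.13, adjusted p = 0.0374), and of 29 Mediator subunits, with 14 above 0, 15 below and a median of -0.01, 2 rose, Med13l (0.52 ± 0.14, adjusted p = 0.0353) and Med25 (0.21 ± 0.06). In Ncoa6, Trrap, Ubr4 and Mycbp2 the groups did not overlap. In these 4 genes, Crebbp and Med13l, OGD/R 5, the library with the high ribosomal protein share, was the lowest of the OGD/R group. DMT 5 was the lowest of the DMT group in the same genes. The part of OGD/R 5 in these rises beyond the counts that follow was not tested. Of the coactivators 1 was called without OGD/R 2 or 5, BD1063 3, 4 or 5, or OGD/R 3 and OGD/R 5 together, and 2 were without OGD/R 6 or BD1063 2. None of the ligases or Mediator subunits was called without OGD/R 2, OGD/R 5, BD1063 3, BD1063 4 or BD1063 5, or OGD/R 3 and OGD/R 5 together. Without OGD/R 1 or OGD/R 6, 1 of each was called, without BD1063 6, 1 ligase and 0 Mediator subunits, and without BD1063 1 or BD1063 2, 1 Mediator subunit.

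The largest falls in the table belonged to structural RNA genes and rested on OGD/R 3. Rpph1, the RNA of ribonuclease P, lay at 181 CPM in OGD/R 3, at 0.249 to 4.30 CPM in the other 5 and at 0.118 to 0.657 CPM in the BD1063 group, with a log2 fold change of -6.62 ± 1.66 (adjusted p = 0.0352). Rn5-8s, a ribosomal RNA gene, lay at 714 CPM in OGD/R 3, at no more than 11.3 CPM in the others and at 0.708 to 6.02 CPM in the BD1063 group (-5.82 ± 1.52, adjusted p = 0.0382). Without OGD/R 3 the value of Rn5-8s was -0.70 and not called, and Rpph1 was too low to be tested. The named identifier of 5S_rRNA and 6 of 5_8S_rRNA had log2 fold changes between -0.85 and -0.16 without OGD/R 3, none of them called, and Metazoa_SRP, an RNA of the signal recognition particle, could not be tested without it. Of the 478 genes called lower 92 were not protein-coding, against 6 of the 257 called higher. With protein-coding genes alone 256 were called higher and 330 lower. The poly-A selection named in the labels is meant to remove such RNAs, and the assignment of reads to their many copies is not described in the labels.

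The comparison with the DMT group asks what BD1063 changed on top of DMT, and it is also the test of whether the differences from OGD/R differ with and without BD1063. No gene was called (edgeR, smallest adjusted p = 0.664), 1005 genes (7.26%) had an unadjusted p under 0.05, limma voom called 0, and DESeq2 called 1. That gene was Mcam, an endothelial adhesion molecule, with 1216 ± 47.8 CPM in the DMT group (n = 5) and 1370 ± 51.1 CPM in the BD1063 group (n = 6; 0.18 ± 0.04, DESeq2 adjusted p = 0.0471, edgeR adjusted p = 0.664). For Insig1 the BD1063 group lay at -0.11 ± 0.07 against the DMT group (95% interval -0.25 to 0.02), and for Hmgcs1 at -0.06 ± 0.06 (interval -0.17 to 0.06). For Uap1l1 the value was -0.19 ± 0.11 (-0.42 to 0.03), for Flcn -0.19 ± 0.07 (-0.34 to -0.04) and for Gdf15 -0.14 ± 0.14 (-0.44 to 0.16). Of these 5 intervals only that of Flcn left out 0. For Tpp1 (-0.09 to 0.18) and Angpt2 (-0.06 to 0.19) the interval against DMT also held 0. For Tpm2 it ran from -0.62 to -0.08, for Crebbp from 0.12 to 0.61 and for Srebf2 from 0.01 to 0.28, with adjusted p = 0.664 for each. The intervals are for single genes and are not adjusted over genes, and the absence of calls does not show that DMT with and without BD1063 act alike. In DMT 5 the ribosomal protein share was 3.67%, and in the other DMT libraries at most 2.20%. Without DMT 5, as without any other single library of the groups, 0 genes were called.

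**Figure D4:**
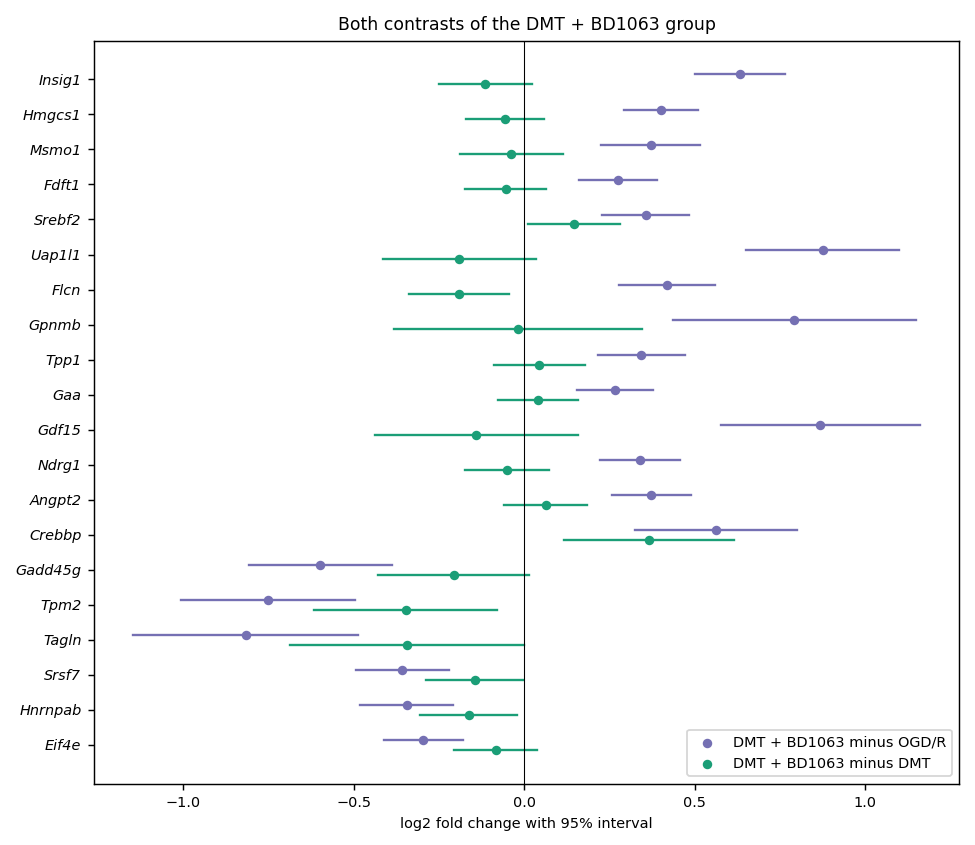
Log2 fold changes with 95% intervals of 20 genes for the BD1063 group against OGD/R (purple) and against the DMT group (green). All 20 genes are called against OGD/R, so their purple intervals lie off 0 by that choice. The green ones are nearer to 0 than the purple ones for each gene, as for Insig1 with 0.63 and -0.11. The choice of genes favours this order too.

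The same OGD/R libraries served for DMT against OGD/R, in which 68 genes were called (0.492%, 45 higher and 23 lower), so the values below share their controls and are not independent. For Insig1 the log2 fold change was 0.75 with DMT and 0.63 with DMT and BD1063, for Hmgcs1 0.46 and 0.40, for Uap1l1 1.07 and 0.87, for Flcn 0.61 and 0.42 and for Gdf15 1.01 and 0.87. For Srebf2 it was 0.21 and 0.36, for Xylb 0.33 and 0.62, for Crebbp 0.20 and 0.56, for Tpm2 -0.40 and -0.75, for Aurka -0.03 and -0.32 and for Hnrnpab -0.18 and -0.34. In these 6 genes the value with DMT alone was not called, and the difference between the 2 was not called either (adjusted p = 0.664 for each). Over cholesterol synthesis the medians were 0.25 with DMT (5 higher, 0 lower) and 0.21 with DMT and BD1063. Over replication and cell division they were -0.16 (0 lower) and -0.23, and over oxidative phosphorylation -0.07 and -0.24. Myc, chosen after its values were seen, was the gene of 35 immediate early and MAP kinase feedback genes called in the BD1063 group against OGD/R (0.23 ± 0.06, adjusted p = 0.036, up to 0.085 over single omissions). It lay at 0.26 ± 0.06 against the DMT group (interval 0.13 to 0.39, adjusted p = 0.664) and at -0.03 with DMT against OGD/R.

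Against normoxia OGD/R itself moved 4916 genes (35.5%), again with shared OGD/R libraries. Angpt2 was at 697 ± 50.6 CPM in normoxia (mean ± SD, n = 6), 543 ± 40.2 CPM in OGD/R (n = 6) and 704 ± 27.5 CPM in the BD1063 group (n = 6). Tpp1 was at 115 ± 3.02, 79.2 ± 8.97 and 100 ± 2.74 CPM, and Ndrg1 at 318 ± 23.1, 181 ± 9.81 and 229 ± 14.1 CPM. These genes were lower after OGD/R than in normoxia and higher with DMT and BD1063 than in OGD/R. Mcm7 was at 76.7 ± 6.89, 153 ± 12 and 122 ± 9.55 CPM, and Hnrnpab at 330 ± 24.9, 484 ± 53.6 and 381 ± 22.4 CPM, the reverse order. Insig1 was at 44.4 ± 2.49, 42.6 ± 4.61 and 66.1 ± 3.46 CPM and Hmgcs1 at 108 ± 8.21, 118 ± 7.81 and 156 ± 6.96 CPM, with the BD1063 group above both others. Of the 38 replication and cell division genes 36 rose and 0 fell after OGD/R, and of the 41 oxidative phosphorylation genes 16 rose and 0 fell. Both contrasts use the OGD/R libraries, so opposite signs in them are not independent results.

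The number of called genes moved with single libraries. Without OGD/R 2 the counts were 46 higher and 62 lower, without BD1063 3 35 and 41, without BD1063 5 31 and 45, without BD1063 4 60 and 82, and without OGD/R 4 324 and 651. Each omission of a single BD1063 library lowered both counts. In all, 61 genes (28 higher and 33 lower) were called without each of the 12 libraries in turn, and 44 (25 higher and 19 lower) were called under all 22 alternative settings, which include the omission of OGD/R 3 and OGD/R 5 together. Among the 44 were Insig1, Hmgcs1, Msmo1, Fdft1 and Srebf2 of the sterol genes, Flcn, Tpp1 and Gaa of the lysosome and autophagy genes, Uap1l1, Xylb, Gdf15, Ndrg1, Angpt2 and Crebbp, and, lower, Tpm2, Tagln, Gadd45g, Cdca7, Srsf7, Srsf9, Hnrnpab, Eif4e, Eif4a2 and Exosc2. Jak3, a cytokine receptor kinase, and Ttyh2, a membrane protein (0.43 ± 0.08 and 0.42 ± 0.08, adjusted p = 0.00813 and 0.00724), and Cuedc2 (-0.50 ± 0.09, adjusted p = 0.00724) were among them as well, named with their values known.

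**Figure D5:**
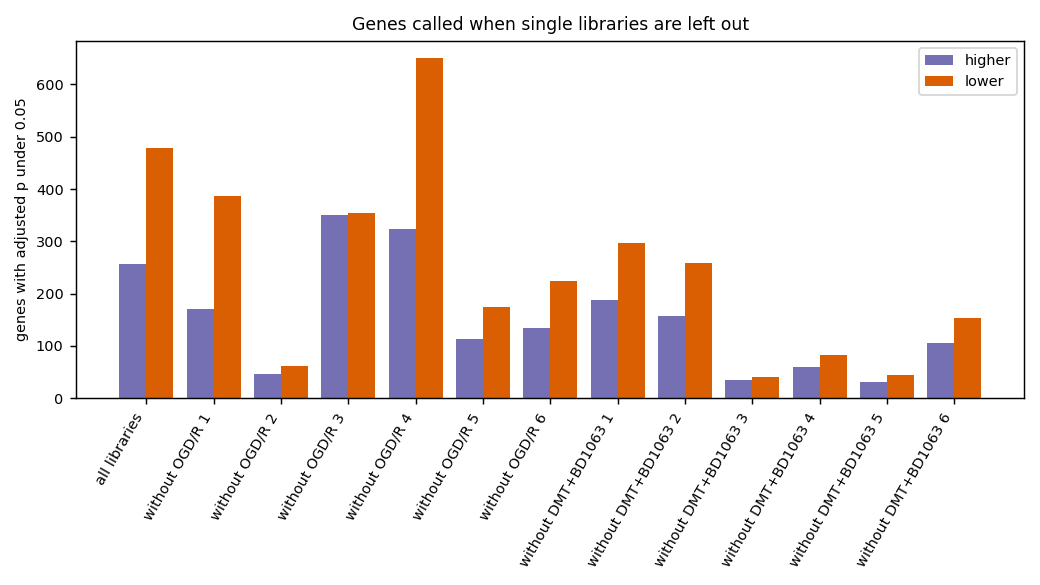
Number of genes called higher (purple) and lower (orange) in the BD1063 group against OGD/R with all libraries and with each of the 12 libraries left out. The counts run from 31 to 351 higher and from 41 to 651 lower.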

How the data were processed

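Poly-A RNA from endothelial lysates was sequenced as single 75-base reads on an Illumina sequencer with a directional library kit, per the labels' protocols. The authors deposited whole-number counts per gene for 23 libraries, under 32883 identifiers. Per the submitters' processing notes the build was Rnor_6.0 and the tools included DESeq2 1.38, RSEM 1.3.3, STAR 2.7.10a, FastQC 0.11.9 and cutadapt 3.4. How RSEM relates to the whole-number counts and whether counting used strand is not stated there. Another deposited table was not used here. A few genes that belong to the lists or to the naming rule are not reported here.

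All libraries entered 1 edgeR 4.0.16 quasi-likelihood fit (R 4.3.3) of 4 group means with TMM scaling, after removing genes with low counts (filterByExpr, minimum count 10), with Benjamini-Hochberg adjustment over 13834 genes. CPM are TMM-scaled. The test was tried on simulated counts first. Genes were named by a rule: the 10 largest rises and falls past the threshold whose mean reached 4 CPM and whose symbols are not clone names, 2 members of each of the 12 lists with the largest shares of calls, and 10 fixed genes. The members and the 56 lists were chosen with earlier results of these data known, and 10 families and all other genes named were chosen after their values were seen. Alternatives were DESeq2 1.42.0, its size factors, limma 3.58.1 voom, other filters, only the groups compared, a replicate block, protein-coding genes alone and left-out libraries. The joint omission of OGD/R 3 and OGD/R 5 in a fit of only those groups was added after seeing the data.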

Additional observations from a re-analysis of the deposited data

Results flagged for a closer look

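In 19 of 96 groups of 6 libraries examined, 1 library stood apart from the other 5 by a large part of the group's range. Chance flags about 1 in 20 groups, but 16 of the 19 are structural RNA genes, which were named for falls that OGD/R 3 set and include 6 copies of 1 RNA, so their number is no test. In OGD/R 3 this held for Rpph1 (181 CPM, others 0.249 to 4.30), 5S_rRNA (204 CPM, others up to 2.36), Metazoa_SRP (82.7 CPM, others up to 1.94) and Rn5-8s (714 CPM, others up to 11.3). It also held there for 6 identifiers of 5_8S_rRNA, at 723, 719, 703, 718, 720 and 1191 CPM. The share of nuclear noncoding RNA was 2.54% in that library and 0.0894% to 0.235% in the other OGD/R libraries. In BD1063 3 the same 6 identifiers of 5_8S_rRNA lay at 5.90, 6.27, 6.09, 6.84, 7.09 and 11.5 CPM, above the other BD1063 libraries. In OGD/R 5 the library apart was high in Dars (135 CPM, others 116 to 121) and in the share of ribosomal protein genes (3.45%, others 2.10% to 2.57%).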

How the results depend on the processing

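None of the called genes refitted under the alternatives against OGD/R reversed its direction where it could be tested; other named genes were not followed this way. Ocln, not called at -0.01, ran from -0.08 to 0.04. Against 257 genes higher and 478 lower, DESeq2 called 573 and 724, limma voom 632 and 1018, a filter of only 1 read 140 and 117, now with more higher than lower, a fit of only the 2 groups compared 734 and 766, the fit without OGD/R 3 and OGD/R 5 54 and 62, and that omission in a fit of only those groups, chosen after seeing the data, 681 and 842. With single libraries left out the counts ran from 31 to 351 higher and from 41 to 651 lower. DESeq2's size factors gave 307 and 412, a filter of at least 50 counts in 5 libraries 306 and 519, and protein-coding genes alone 256 and 330. With the title numbers as a replicate block 417 were higher and 634 lower. Deviations of same-numbered libraries from their group means correlated at r from -0.30 to 0.31 over 6 pairs, and 2 of 6 were best matched by their own number. These few values do not settle whether the numbers pair the samples. Against the DMT group DESeq2 called 1 gene higher, and the other alternatives 0. The cause of these shifts was not tested. Depth limits the genes described that lie under a few CPM, among them Castor2, Eln and, outside OGD/R 3, Rpph1 and Metazoa_SRP. The median log2 fold change of all genes was -0.01, and 0.00 without OGD/R 5.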
